A study of Mus musculus with 16 samples.

Results

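Metallothioneins and zinc transporters were followed in the livers of mice dosed with emodin, an anthraquinone found in rhubarb root. The 9 genes were taken by symbol from the deposited table of 27446 entries: the metallothioneins Mt1 and Mt2, the metal-sensing factor Mtf1, the importers Slc39a14, Slc39a4, Slc39a5 and Slc39a8, and the exporters Slc30a1 and Slc30a10. All 9 had enough counts to be tested, among 14308 tested entries. The emodin group held 8 livers of wild-type C57BL/6 mice given emodin by stomach tube at 400 mg/kg for 3 weeks in 0.5% sodium carboxymethyl cellulose, and the vehicle group held 8 livers of wild-type mice given the cellulose solution without emodin. Livers were taken after the last dose, and total RNA was sequenced. Age and sex are not used here, and the labels do not state whether every library is a separate animal, so p-values measure the spread between libraries.

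Metallothioneins are small proteins rich in cysteine that hold zinc, copper and cadmium, and liver is among their main sites of synthesis. Their genes are switched on by zinc through MTF-1, a zinc finger factor that binds metal response elements, and also by glucocorticoids, by interleukin 6 in the acute phase response and by oxidative stress. ZIP proteins (Slc39 genes) carry zinc into the cytosol and ZnT proteins (Slc30 genes) carry it out of the cytosol, and several of them also move manganese, iron or cadmium.

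The promoter windows of Mt1, Mt2 and Slc30a1 are shown because these are the members best known as targets of MTF-1 in mouse and man. Each is the RefSeq window of 300 bases on GRCm38.p6, the assembly called mm10, 5′ to 3′ on the plus strand. The Mt1 window is chr8:94178839-94179138, that of Mt2 is chr8:94172368-94172667, and that of Slc30a1 is chr1:191906531-191906830. Capitals mark matches to the core of the metal response element, TGCACNC or TGCGCNC, on either strand.
Mt1: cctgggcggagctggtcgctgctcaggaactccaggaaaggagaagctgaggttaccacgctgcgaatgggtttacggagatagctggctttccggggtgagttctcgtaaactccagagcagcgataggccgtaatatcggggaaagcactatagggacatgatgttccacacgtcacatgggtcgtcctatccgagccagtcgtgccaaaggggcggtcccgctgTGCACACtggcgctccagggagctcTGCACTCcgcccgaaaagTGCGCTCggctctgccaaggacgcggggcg
Mt2: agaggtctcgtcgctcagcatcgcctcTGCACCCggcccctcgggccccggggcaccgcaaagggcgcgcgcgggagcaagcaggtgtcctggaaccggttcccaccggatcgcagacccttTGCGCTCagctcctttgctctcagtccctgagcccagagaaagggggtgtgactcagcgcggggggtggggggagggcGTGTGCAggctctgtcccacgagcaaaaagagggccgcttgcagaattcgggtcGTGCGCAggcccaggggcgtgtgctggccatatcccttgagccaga
Slc30a1: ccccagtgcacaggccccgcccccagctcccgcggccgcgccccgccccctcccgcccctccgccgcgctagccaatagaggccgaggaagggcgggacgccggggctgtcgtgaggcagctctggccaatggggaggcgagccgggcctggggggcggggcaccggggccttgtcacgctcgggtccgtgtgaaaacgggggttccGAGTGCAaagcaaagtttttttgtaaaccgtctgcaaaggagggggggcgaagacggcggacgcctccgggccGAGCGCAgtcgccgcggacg

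The core occurred 3 times in the Mt1 window, 4 times in that of Mt2 and 2 times in that of Slc30a1. Of all 32851 RefSeq promoter windows of this length, 25.7% held at least 1 match, 1.97% at least 3 and 0.517% at least 4. None of the 9 matches in these 3 windows overlapped another of them or a match to the other motifs searched. RefSeq windows were matched for 7 of the 9 members, with Slc39a14 and Slc39a4 not matched. The Slc30a10 window held 3 matches, of which a pair overlapped, the windows of Slc39a5 and Slc39a8 (each with 2 start sites) held 1 or 0, and that of Mtf1 held 0. The antioxidant response element TGACNNNGC, found in 12.4% of all windows, matched once in the windows of Mt2, Slc30a1 and the first start site of Slc39a8, 2 times in that of the second start site of Slc39a5, and in no other member window. The STAT3 element TTCNNNGAA (8.3% of windows) matched none of the members, and the glucocorticoid receptor core AGAACA (19% of windows) matched in the window of Mtf1 alone. A match is a run of letters, not a shown binding site. In GENCODE M21 the coding transcripts of Mt1 start at 94179082, 94179211 and 94179241, so the Mt1 window ends 73 and 103 bases before the later starts. Those of Mt2 start at 94172664 and 94172860, so the Mt2 window ends 193 bases before the later start.

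Both metallothionein mRNAs were far more abundant with emodin, and no emodin liver overlapped a vehicle liver for either. The mRNAs of the importer Slc39a8 and the exporter Slc30a10 were somewhat less abundant. The other 5 members did not pass the test, among them Slc39a14, Slc30a1 and Mtf1. Of the 9 members 2 rose and 2 fell, 4 in all, where 13.2% of all tested entries were called, 7.7% higher and 5.47% lower (edgeR quasi-likelihood test, Benjamini-Hochberg adjusted p under 0.05). The median log2 fold change was -0.13 over the members and 0.012 over all tested entries. In whole liver, a change in the number of cells of a type and a change in RNA per cell cannot be told apart. Depth in estimated counts (M, mega) was 28.3 M to 48.2 M in the emodin group and 28.7 M to 38.6 M in the vehicle group, with means of 38.6 ± 6.91 M in the emodin group and 32.3 ± 3.16 M in the vehicle group (SD, n = 8 each; two-sided exact permutation test, p = 0.035). The array weights of limma, which fall as a library departs from the fit, were lowest for emodin 8, 4 and 5 (0.276, 0.376 and 0.455) and lay between 0.714 and 1.94 in the other 13 livers. Without these 3 livers Mt1 (2.49), Mt2 (3.50) and Slc39a8 (-0.33) kept their calls on the log2 scale, and Slc30a10 (-0.46, edgeR adjusted p = 0.0891) did not.

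Mt1 lies on chromosome 8 from 94179082 to 94180327 (mm10), downstream of Mt2, which lies from 94172664 to 94173568 on the same strand, and 5513 bases separate them. Mt1 had 138, 934, 135, 936, 586, 316, 334 and 260 CPM (estimated counts per M counts of the library, after TMM correction) in emodin livers 1 to 8. In vehicle livers 1 to 8 it had 19.3, 48.4, 89.3, 68.7, 75.0, 62.7, 40.0 and 128 CPM. The groups did not overlap, although emodin livers 1 and 3 stood just above vehicle liver 8. Mt2 had 83.5, 921, 73.3, 839, 544, 233, 310 and 203 CPM in emodin livers 1 to 8. Vehicle livers 1 to 8 had 5.20, 14.5, 40.6, 30.2, 33.7, 28.5, 15.4 and 62.3 CPM. Emodin livers 2, 4 and 5 were highest for both genes and vehicle liver 1 lowest, and again no emodin liver reached down to the vehicle range. Such a complete separation upward was found for 0.937% of all tested entries.

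Mt1 averaged 455 ± 328 CPM in emodin livers and 66.5 ± 33.1 CPM in vehicle livers, a log2 fold change of 2.77 ± 0.47 (SE, edgeR adjusted p = 0.00243). Mt2 averaged 401 ± 331 CPM in emodin livers and 28.8 ± 17.8 CPM in vehicle livers, or 3.80 ± 0.62 as log2 fold change (edgeR adjusted p = 0.00204). Exons of Mt2 overlap those of the antisense gene Gm45774, and whether counting used strand is not given in the sources used here. Both calls held in all 11 alternative analyses and with each of the 16 livers left out. Together the pair took 0.0880 ± 0.0704% of all estimated counts in emodin livers and 0.00936 ± 0.00477% in vehicle livers. The highest share was 0.200%, in emodin liver 4, and the lowest was 0.00238%, in vehicle liver 1. Within a group the levels already spread widely: the highest liver stood 6.92-fold over the lowest for Mt1 and 12.6-fold for Mt2 among emodin livers, against 6.63-fold and 12.0-fold among vehicle livers.

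**Figure D1:**
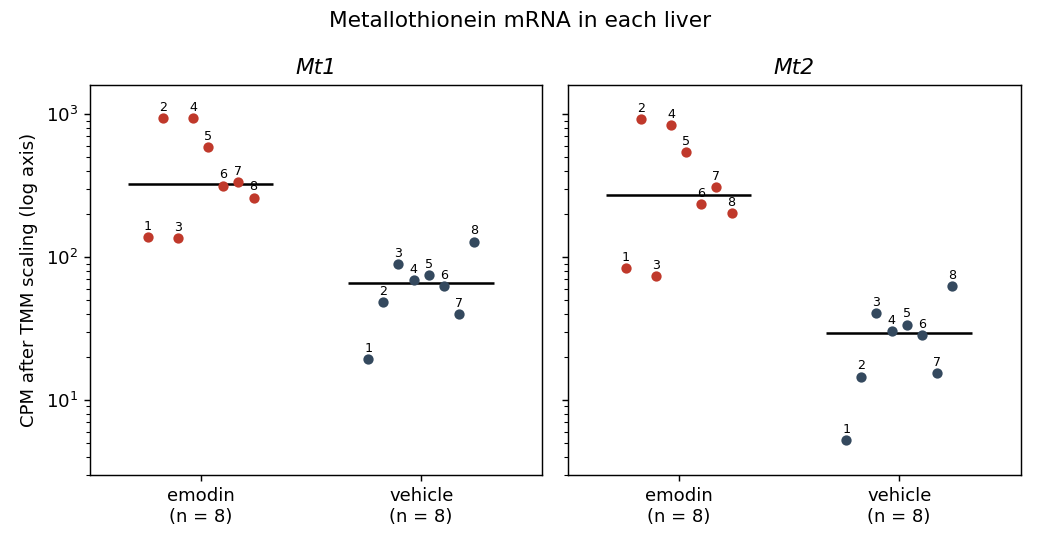
CPM after TMM scaling (log axis) of Mt1 (left) and Mt2 (right) in each liver, emodin livers left of vehicle livers; points are livers numbered as in the labels and bars are medians of 8. All 8 emodin livers lie above all 8 vehicle livers for both genes, with emodin 1 and 3 lowest and emodin 2 and 4 highest in their group.

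Mt2 changed by a larger factor than its neighbour. The count of Mt2 divided by that of Mt1 was 0.606, 0.986, 0.543, 0.897, 0.929, 0.739, 0.926 and 0.779 in emodin livers 1 to 8. The ratio in vehicle livers 1 to 8 was 0.269, 0.300, 0.454, 0.440, 0.449, 0.454, 0.385 and 0.486. Every emodin ratio exceeded every vehicle ratio, and library scaling cancels in it. The mean ratio was 0.801 ± 0.162 in emodin livers and 0.405 ± 0.0797 in vehicle livers, a log2 difference of 0.98 (exact two-sided permutation test, p = 0.000155, the smallest that 12870 assignments can give).

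The 2 genes ranked the livers almost alike in each group. Log2 CPM of Mt2 against Mt1 gave Pearson r = 0.995 in the emodin livers (exact permutation p = 4.96e-05, n = 8, adjusted over 4 relations 0.000198). Spearman's rho there was 0.976 (exact permutation p = 0.000397, adjusted 0.000794), and r was 0.994 without emodin 4 and 2, the livers farthest from the median. In the vehicle livers r was 0.991 (exact permutation p = 9.92e-05, n = 8, adjusted 0.000198), rho was 0.976 (exact permutation p = 0.000397, adjusted 0.000794), and r was 0.960 without vehicle 1 and 8. The slope of log2 Mt2 on log2 Mt1 was 1.25 in emodin livers and 1.33 in vehicle livers, so Mt2 spread more than Mt1 in both groups. The other 2 relations set the mean log2 CPM of the pair against log2 total counts. They gave r = -0.11 in emodin livers (rho -0.0476, exact permutation p = 0.792 and 0.935, adjusted 0.854 and 1, n = 8) and r = 0.0728 in vehicle livers (rho 0, exact permutation p = 0.854 and 1, adjusted 0.854 and 1, n = 8). Without the 2 libraries farthest from the median depth these were 0.144 in emodin livers and -0.612 in vehicle livers. Annotated Mt1 and Mt2 transcripts share no run of more than 20 bases. How the authors assigned reads that match several genes is not given in the sources used here.

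**Figure D2:**
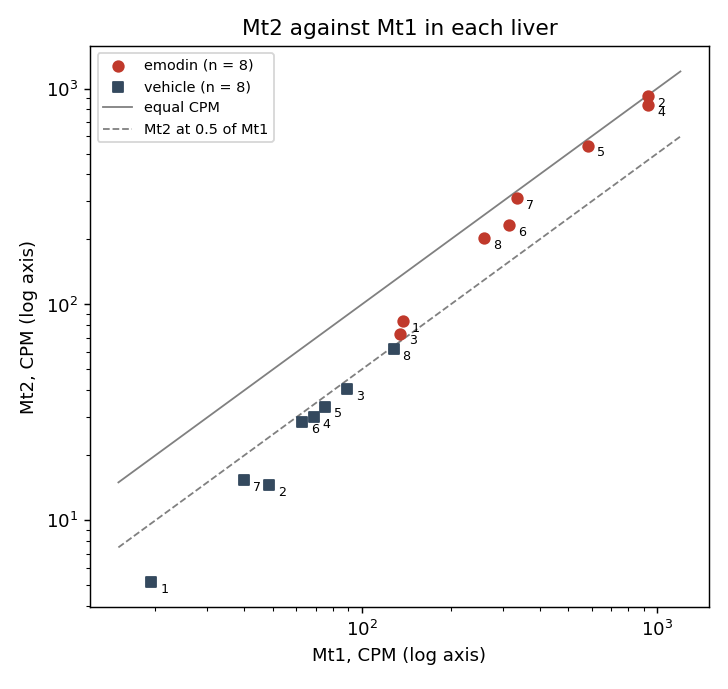
CPM of Mt2 against CPM of Mt1 (both log axes), 1 point per liver, circles for emodin and squares for vehicle, with lines at equal CPM and at an Mt2 level 0.5 of Mt1. Vehicle livers lie under the line at 0.5 and emodin livers between the lines, with emodin 2 nearest the line of equal CPM (ratio 0.986).

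The other metallothionein genes of mouse were at or near 0. Mt3, best known from brain, had 6 counts over the 8 emodin livers and 1 over the 8 vehicle livers, and Mt4, known from stratified epithelia, had 0 in all 16. A count of 0 allows up to 3 counts, or 0.067 to 0.107 CPM in a liver, a limit that covers counting error alone. Neither gene passed the filter on low counts.

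Mtf1, which encodes the zinc sensor of these promoters, lies on chromosome 4 from 124802104 to 124849800. It ranged from 14.3 to 18.4 CPM in emodin livers (median 15.8) and from 15.5 to 20.1 CPM in vehicle livers (median 17.6). The groups overlapped, and 3 of 8 emodin livers lay below every vehicle liver. The log2 fold change was -0.13 ± 0.067 (edgeR adjusted p = 0.191). Mtf1 shares exon sequence with the coding gene 1110065P20Rik on the other strand, so its counts are likewise uncertain.

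Among the importers, Slc39a14 encodes ZIP14, which takes up zinc, manganese and iron not bound to transferrin and is known in mouse liver as a gene induced by interleukin 6. It lies on chromosome 14 from 70303469 to 70351425. It had 201, 269, 193, 214, 271, 193, 241 and 226 CPM in emodin livers 1 to 8. In vehicle livers 1 to 8 it had 195, 147, 253, 191, 228, 217, 193 and 223 CPM. Emodin livers 2 and 5 stood above every vehicle liver, and the other 6 lay within the vehicle range. The mean was 226 ± 31.7 CPM in emodin livers and 206 ± 31.9 CPM in vehicle livers, and the log2 fold change was 0.13 ± 0.11 (edgeR adjusted p = 0.427).

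Slc39a8 encodes ZIP8, an importer of zinc, manganese and cadmium that in mouse liver takes manganese back from bile. It lies on chromosome 3 from 135825279 to 135888572. It had 19.6, 16.4, 18.0, 15.4, 14.3, 20.5, 21.4 and 17.9 CPM in emodin livers 1 to 8. Vehicle livers 1 to 8 had 26.6, 23.0, 25.9, 22.8, 28.5, 21.4, 21.6 and 23.6 CPM. All emodin livers but number 7 lay below every vehicle liver, and that liver was level with the lowest vehicle livers. Slc39a8 fell by 0.43 ± 0.089 on the log2 scale (edgeR adjusted p = 0.00632), to 17.9 ± 2.49 CPM in emodin livers, against 24.2 ± 2.56 CPM in vehicle livers. The call held in all 11 alternative analyses and without any 1 of the 16 livers, with values from -0.48 to -0.38. No member had all emodin livers below all vehicle livers, a pattern found for 1.03% of all tested entries.

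Slc39a4 encodes ZIP4, the zinc uptake protein of the gut whose loss causes acrodermatitis enteropathica in man, and Slc39a5 encodes ZIP5, known from the basolateral side of gut and pancreatic cells. Slc39a4 lies on chromosome 15 from 76612383 to 76617384 and Slc39a5 on chromosome 10 from 128395931 to 128401229. Slc39a4 ranged from 33.0 to 51.7 CPM in emodin livers (median 40.2) and from 37.4 to 56.7 CPM in vehicle livers (median 44.6). The groups overlapped, with 3 of 8 emodin livers below every vehicle liver, and the log2 fold change was -0.17 ± 0.10 (edgeR adjusted p = 0.285). Slc39a5 was close to the limit of detection, at 0.0919 to 0.569 CPM in emodin livers and 0 to 0.847 CPM in vehicle livers. Its log2 fold change of -0.44 ± 0.47 (edgeR adjusted p = 0.562) turned to 0.27 with array weights. The 7 markers of exocrine pancreas summed to 5.79 to 16.1 CPM in emodin livers and 10.7 to 19.7 CPM in vehicle livers (0 of 2 tested markers called, Prss2 at 0 in all 16). Most of this sum was Cela1, with means of 9.48 CPM in emodin livers and 13.3 CPM in vehicle livers. Cela2a averaged 0.461 and 0.519 CPM, and Cpa1, Ctrb1, Pnlip and Cel were at or near 0. The 4 islet markers Ins1, Ins2, Gcg and Iapp were at 0 throughout.

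Slc30a10 and Slc30a1 encode the exporters. ZnT10, the product of Slc30a10, moves manganese out of the cell, and its loss causes manganese overload in man. The gene lies on chromosome 1 from 185454848 to 185468762. It had 14.6, 24.5, 16.4, 21.7, 11.6, 17.6, 22.8 and 17.9 CPM in emodin livers 1 to 8. In vehicle livers 1 to 8 it had 33.9, 19.9, 27.0, 26.0, 35.2, 26.3, 22.4 and 20.8 CPM. Emodin livers 1, 3, 5, 6 and 8 lay below every vehicle liver and the other 3 within the vehicle range. Slc30a10 fell by 0.52 ± 0.15 on the log2 scale (edgeR adjusted p = 0.0312), to 18.4 ± 4.38 CPM in emodin livers, against 26.5 ± 5.64 CPM in vehicle livers. The call was lost without emodin 3 (-0.49), emodin 6 (-0.50), vehicle 1 (-0.46), vehicle 3 (-0.51) or vehicle 5 (-0.45), and in 4 of the 11 alternatives. The adjusted p ran from 0.00962 to 0.117 across these edgeR, limma, DESeq2 and rank-sum fits.

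ZnT1, the product of Slc30a1, exports zinc across the plasma membrane. Its gene lies on chromosome 1 from 191906767 to 191913247. It had 37.7, 37.4, 37.7, 38.2, 49.2, 31.2, 53.5 and 43.1 CPM in emodin livers 1 to 8. Vehicle livers 1 to 8 had 42.3, 36.1, 32.2, 29.2, 41.0, 33.7, 34.6 and 27.5 CPM. Emodin livers 5, 7 and 8 stood above every vehicle liver and the rest within the vehicle range. The log2 fold change was 0.25 ± 0.11 (edgeR adjusted p = 0.147), and it was 0.41 with library size as a covariate, where the gene was called (edgeR adjusted p = 0.0263; up to 0.289 in the other alternatives). Emodin livers 2 and 4, with the most Mt1 and Mt2 mRNA, had 37.4 and 38.2 CPM of Slc30a1, less than vehicle livers 1 and 5. Emodin liver 5, next highest for Mt1 and Mt2, had 49.2 CPM. In all, 7 of the 8 emodin livers exceeded the vehicle median of Slc30a1 and 1 did not. Slc30a1 and Slc30a10 each share exon sequence with a noncoding gene on the other strand.

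**Figure D3:**
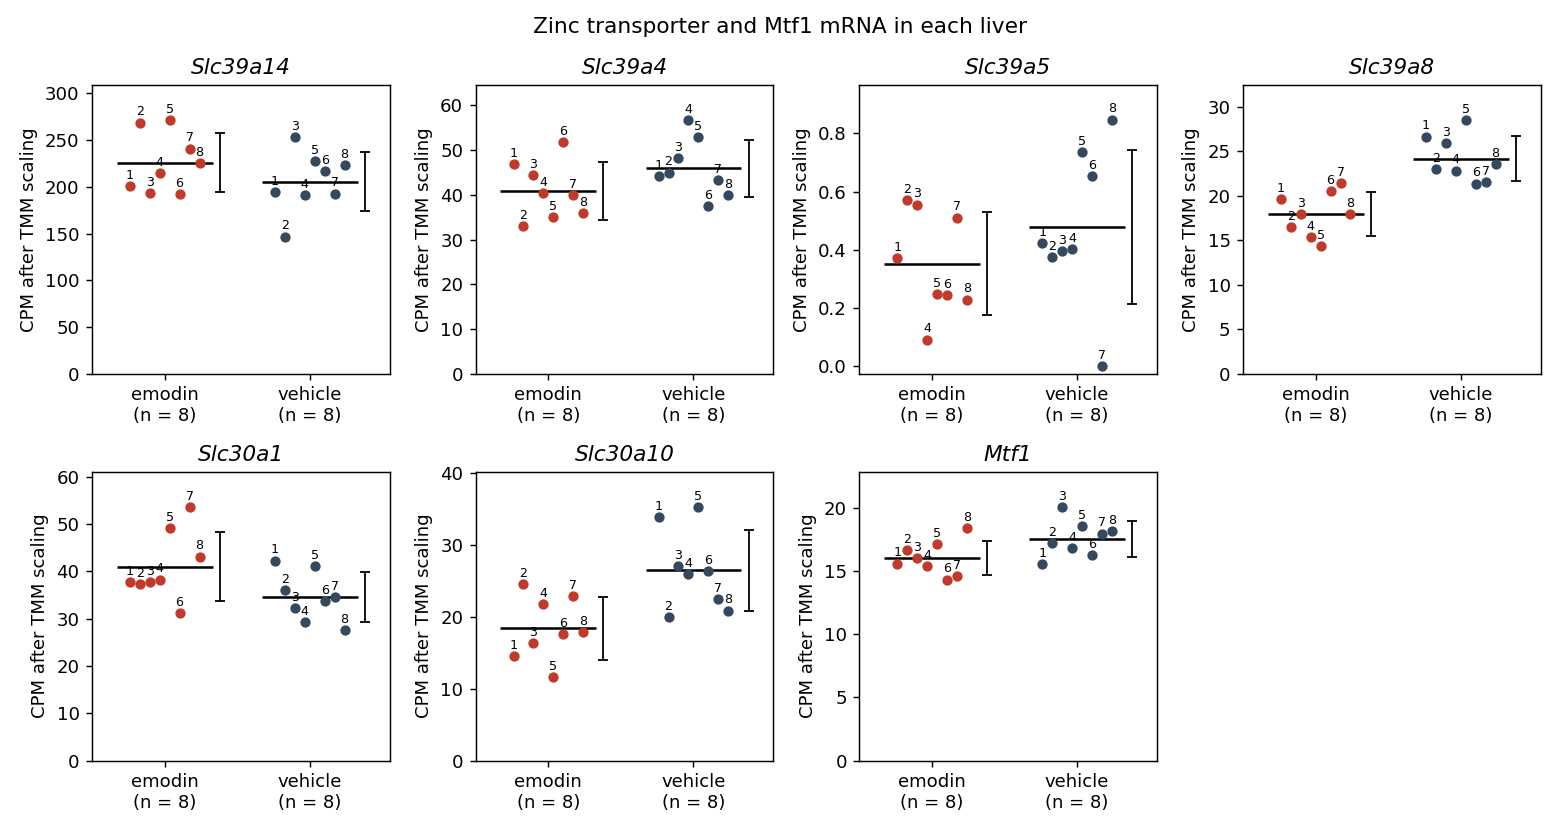
CPM after TMM scaling (linear axes from 0) of the transporters and Mtf1 in each liver, emodin left of vehicle; points are numbered livers, horizontal bars are means and error bars are SD (n = 8 each). Slc39a8 shows the clearest shift, 17.9 ± 2.49 CPM in emodin livers and 24.2 ± 2.56 CPM in vehicle livers, and Slc39a14, Slc39a4, Slc30a1 and Mtf1 overlap widely.

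Set side by side in the 8 emodin livers, the members did not move as a block. Relative to the vehicle mean, emodin livers 2, 4 and 5 stood 14.1-fold, 14.1-fold and 8.81-fold high for Mt1, and emodin livers 1 and 3 stood 2.07-fold and 2.03-fold high. Slc39a8 was lowest in emodin 5 and 4, and Slc30a10 was lowest in emodin 5 and 1. Emodin 2 and 4, the livers with most metallothionein mRNA, had Slc30a10 at 24.5 and 21.7 CPM, within the vehicle range. After each group's mean was taken off, the mean log2 CPM of Mt1 and Mt2 correlated at Pearson r = 0.598 with Slc39a14 over the 16 livers, at -0.396 with Slc39a8, at -0.198 with Slc30a1 and at 0.323 with Mtf1. With Slc30a10 it gave r = 0.137, with Slc39a4 -0.338 and with Slc39a5 0.0663. Within the groups the pair and Slc30a1 gave r = 0.147 in emodin livers and -0.709 in vehicle livers. The pair and Slc30a10 gave 0.411 and -0.285. The importers Slc39a14 and Slc39a4 gave r = -0.894 in emodin livers and -0.00802 in vehicle livers (n = 8 each). In emodin livers no other member had so large an r with Slc39a14 in either direction. All these r are descriptions over libraries that share their scaling, with no test.

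**Figure D4:**
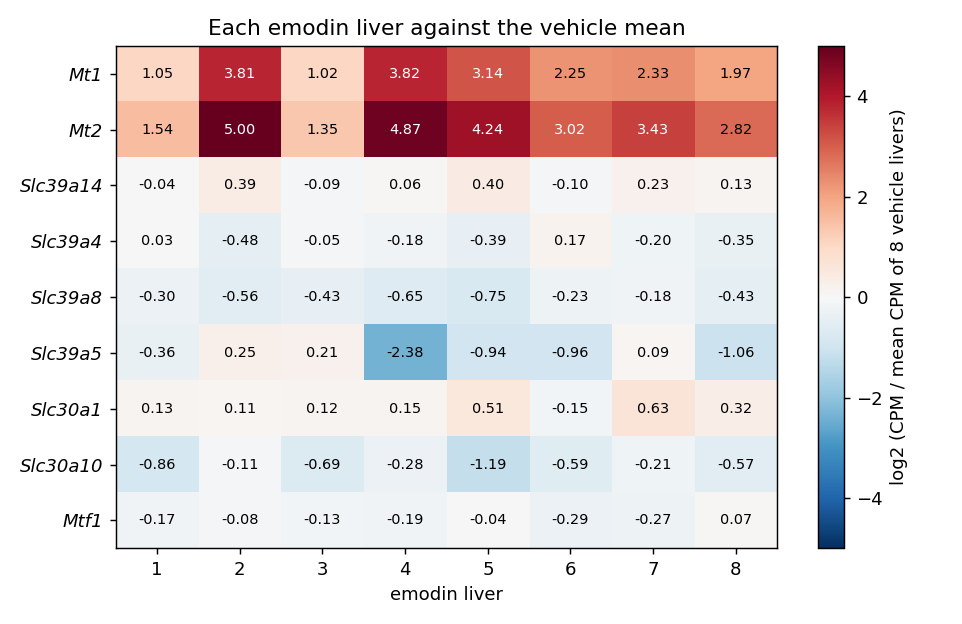
Log2 of the CPM in each emodin liver (columns) over the mean CPM of the 8 vehicle livers, for the 9 members (rows); red is above and blue below the vehicle mean. Mt1 and Mt2 are positive in all 8 columns, from 1.02 to 3.82 and from 1.35 to 5.0, and Slc39a8 and Slc30a10 are negative in all 8.

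Levels of different genes were compared as CPM per kb of annotated exons. In emodin livers the order was Mt2 (682 ± 563), Mt1 (365 ± 263), Slc39a14 (21.4 ± 3.01), Slc39a4 (13.2 ± 2.06), Slc30a1 (7.82 ± 1.38), Slc30a10 (3.15 ± 0.751), Slc39a8 (2.34 ± 0.325), Mtf1 (1.80 ± 0.151) and Slc39a5 (0.159 ± 0.0794), all in CPM per kb. In vehicle livers Mt1 led with 53.4 ± 26.6 CPM per kb, followed by Mt2 (49.0 ± 30.3), Slc39a14 (19.5 ± 3.02), Slc39a4 (14.8 ± 2.06), Slc30a1 (6.59 ± 0.989), Slc30a10 (4.53 ± 0.966), Slc39a8 (3.15 ± 0.334), Mtf1 (1.97 ± 0.16) and Slc39a5 (0.215 ± 0.119). Slc39a14 and Slc39a4 were separate in the emodin livers (18.3 to 25.7 and 10.6 to 16.7 CPM per kb) and overlapped in the vehicle livers (13.9 to 24.0 and 12.1 to 18.2). Slc30a10 overlapped Slc39a8 in both groups, and both genes overlapped Mtf1 in the emodin livers. In the vehicle livers Slc30a1 overlapped Slc30a10. In emodin livers the ranges of Mt1 and Mt2 lay above those of all other members, while in vehicle livers both overlapped Slc39a14 and Slc39a4. Mt1 and Mt2 overlapped each other in both groups. The order of some members depended on the length used. With the principal transcript in place of all exons, Mt1 was at 829 and Mt2 at 785 CPM per kb in emodin livers. In vehicle livers they were at 121 and 56.4. Slc39a8 then stood at 5.08 CPM per kb in emodin livers, above Slc30a10 (3.15). In vehicle livers it stood at 6.84, above Slc30a1 (6.59) and Slc30a10 (4.53). The ranges above used all exons, and those with the principal transcript were not compared.

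The whole family of 24 zinc transporters was counted beside the members. Of 21 tested genes 1 rose, 2 fell (the members Slc39a8 and Slc30a10) and 18 did not pass, a share of calls close to the 13.2% of all entries. The median log2 fold change of the family was 0.063, against 0.012 over all tested entries. The gene that rose was Slc30a4, whose product ZnT4 loads zinc into vesicles and, in mouse, into milk. It ranged from 12.8 to 18.5 CPM in emodin livers and from 10.5 to 13.4 CPM in vehicle livers, and 6 of the 8 emodin livers exceeded the whole vehicle group. Its log2 fold change was 0.30 ± 0.086 (edgeR adjusted p = 0.0315). Exons of Slc30a4 overlap those of the noncoding gene 4930417H01Rik on the other strand. The call was lost without emodin 4 (0.28) or 8 (0.27) or vehicle 2 (0.26), 4 (0.27), 5 (0.29) or 7 (0.30), in 3 of the 11 alternatives, and without the 3 livers of lowest array weight (0.28). The adjusted p ran from 0.0181 to 0.0823 across these edgeR, limma, DESeq2 and rank-sum fits. The uncalled gene nearest the threshold, named after its values were seen, was Slc39a1, which encodes the plasma membrane importer ZIP1, with 64.7 ± 10.5 CPM in emodin livers and 54.1 ± 1.99 CPM in vehicle livers (edgeR adjusted p = 0.0532). Slc30a2, Slc30a8 and Slc39a12 were too low to test, with 17, 36 and 17 counts over the emodin livers and 19, 16 and 19 over the vehicle livers (exact two-sided permutation p = 0.726, 0.226 and 0.667 on CPM).

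**Figure D5:**
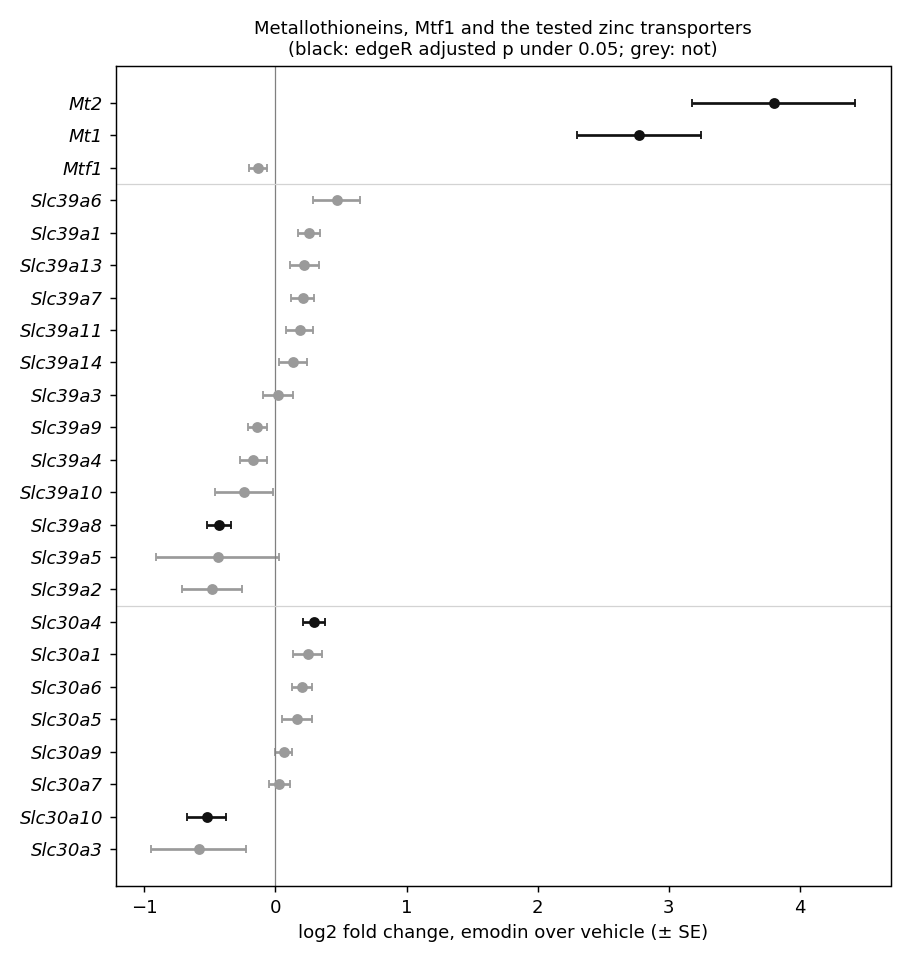
Log2 fold change, emodin over vehicle, with SE, of Mt1, Mt2, Mtf1 (top), the tested ZIP genes (middle) and the tested ZnT genes (bottom); black marks an edgeR adjusted p under 0.05. The metallothioneins stand at 2.77 and 3.80, and the transporters lie between -0.58 and 0.47.

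Of 12 copper handling genes 0 passed in either direction in edgeR (median log2 fold change 0.032), where 13.2% of all tested entries were called. The nearest were Cp, which encodes the plasma copper protein ceruloplasmin, with 0.52 ± 0.18 (edgeR adjusted p = 0.0565), and Atp7b, the copper pump of the hepatocyte, with -0.30 ± 0.12 (edgeR adjusted p = 0.114). Cp passed with DESeq2, with library size as a covariate and without emodin 1, 3, 6 or 7 (0.59, 0.57, 0.59 and 0.56).

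Genes of the signals known to act on metallothioneins were counted too, from lists chosen with earlier results of these data known. Over all tested entries 13.2% were called, 7.7% higher and 5.47% lower. Of 15 genes of interleukin 6 signalling and the acute phase 11 rose and 0 fell (median log2 fold change 1.24). They included Lcn2 (5.93 ± 1.02), Saa2 (5.88 ± 1.11), Saa1 (5.29 ± 0.88) and Orm2 (4.15 ± 0.79), secreted proteins of inflammation, with log2 fold changes in parentheses (± SE, edgeR adjusted p from 0.00235 to 0.00538). With array weights the calls of Lcn2, Saa2 and Orm2 were lost (3.03, 2.95 and 2.28), and that of Orm2 also in the rank-sum test. Of 10 glucocorticoid receptor genes and targets 2 rose and 1 fell (median 0.091): Fkbp5, a chaperone of the receptor, had 0.85 ± 0.27, Cebpd, a transcription factor, had 0.70 ± 0.19, and Tsc22d3, a glucocorticoid-induced zipper protein, had -0.73 ± 0.15 (edgeR adjusted p = 0.0479, 0.0245 and 0.0062). Fkbp5 lost its call in 13 of the 16 analyses that left out a liver, all but those without vehicle 1, 6 or 8, and in 4 of the 11 alternatives, and Cebpd lost it in the rank-sum test. Without the 3 livers of lowest array weight neither Fkbp5 (0.88, edgeR adjusted p = 0.142) nor Cebpd (0.52, edgeR adjusted p = 0.0709) passed. Of 8 tested NRF2 targets 1 rose and 0 fell (median 0.39), a share of calls close to the 13.2% of all entries. Of the 8, 6 had a positive log2 fold change, and Gclm (-0.17) and G6pdx (-0.098) had a negative one. Gsta1 (2.01) and Hmox1 (1.53), named after their values were seen, were uncalled but nearest the threshold (edgeR adjusted p = 0.0532 and 0.0501). Slc7a11 was too low to test, with 116 counts over the emodin livers and 3 over the vehicle livers. The gene that rose was the sulfiredoxin gene Srxn1, with 1.76 ± 0.42 (edgeR adjusted p = 0.0146). Its call was lost with array weights (0.78), with quantile normalization (1.34), without the 3 livers of lowest array weight (0.67) and in 1 further alternative.

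The 5 annotated genes most like the mean log2 CPM of Mt1 and Mt2 over the 16 livers, after each group's mean was taken off, were Ptpn1, Dap, Orm3, Itih4 and Orm2, with Pearson r from 0.800 to 0.818. Within the 8 emodin livers their r was 0.875, 0.968, 0.926, 0.889 and 0.947, and within the 8 vehicle livers it was 0.718, 0.518, 0.668, 0.645 and 0.520. Ptpn1 encodes a tyrosine phosphatase, Dap a death-associated protein, Itih4 a plasma acute phase protein, and the neighbouring Orm genes acid glycoproteins whose reads may be shared. All 5 were themselves called higher, with log2 fold changes of 0.49, 0.50, 3.54, 0.79 and 4.15 (edgeR adjusted p from 0.00114 to 0.00749); the call of Orm3 was lost with array weights (2.04) and in the rank-sum test. Orm2 had 6.66, 561, 16.6, 685, 141, 73.6, 152 and 115 CPM in emodin livers 1 to 8, against 7.68 to 24.1 CPM in vehicle livers. It too was highest in emodin 2 and 4, while emodin 1 and 3 did not exceed the vehicle range. The 5 genes most like Slc39a14 were Cpox, Scyl2, Slc30a5, Uhrf1bp1l and Dr1, with r from 0.829 to 0.858, and none of the 5 was called (edgeR adjusted p from 0.0625 to 0.979). Uhrf1bp1l was called lower with DESeq2 (-0.23), array weights (-0.27) and quantile normalization (-0.23) and without emodin 7 (-0.24) or vehicle 2 (-0.26), and Dr1 with array weights (-0.27) and quantile normalization (-0.23). Slc30a5 encodes ZnT5, a zinc carrier of the secretory pathway, and had 43.4 ± 6.22 CPM in emodin livers and 38.6 ± 7.21 CPM in vehicle livers. All these r were picked as the highest among all annotated genes tested and carry no test.

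Markers of other cell types were measured in the same livers. The 5 hepatocyte markers summed to 50190 to 92930 CPM in emodin livers and 88030 to 115200 CPM in vehicle livers. Albumin (Alb) was called lower and the other 4 were not called. Most of this sum was Alb, with means of 59544 CPM in emodin livers and 84492 CPM in vehicle livers. The log2 fold change was -0.50 for Alb, -0.23 for Ttr, -0.040 for Apoa1, -0.0049 for Cps1 and 0.36 for Hnf4a. None of the tested markers of Kupffer cells (5), neutrophils (2), stellate cells (5), cholangiocytes (5) or T and B cells (5) was called. Of the endothelial markers 1 of 5, and of the small intestine markers 1 of 2 tested, was called lower, as were 5.47% of all tested entries. Kupffer cell markers summed to 147 to 435 CPM in emodin livers and 98.8 to 446 CPM in vehicle livers, and neutrophil markers to 0.457 to 3.51 and 0.0621 to 2.63 CPM. Their part in the results above was not tested.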

How the data were processed

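Liver RNA in 16 mouse libraries (8 emodin, 8 vehicle) was measured by RNA sequencing. The deposited values are estimated counts per gene: whole numbers (0 values were not whole), scaled neither for depth nor for length, although the table's name speaks of FPKM. The submitters' processing notes name mm10 and, in no order, HTSeq 0.6.1, Cufflinks 2.2.1, HISAT2, cutadapt 1.9.1 and SAMtools 0.1.19. Which of these made the estimated counts, from which annotation, with what use of strand and what handling of reads shared between genes, is not given in the sources used here. All sample columns were used (0 were left aside).

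The test was that of edgeR 4.0.16 under R 4.3.3 (filterByExpr defaults, TMM factors of 0.929 to 1.16, robust quasi-likelihood F test, group as the single term), and p-values were adjusted by Benjamini-Hochberg over 14308 entries and called under 0.05. The rounding that count models need changed nothing. The SE is the absolute log2 fold change over the square root of F. Log2 CPM used a prior count of 2. The scripts were tested on simulated data. Exact permutation tests between groups took all 12870 assignments of the 16 livers, or all those of the livers that remained where 1 was left out, and those of correlations took all orderings of the 8 livers of a group (SciPy 1.17.1). Gene coordinates and exon lengths came from GENCODE M21 on mm10, and promoter windows from RefSeq. A limit for a count of 0 is 3 counts per library. Alternatives were RLE factors, total counts, TMM without the 50 most abundant entries, no filter, the replicate block, library size as a covariate, Ensembl entries alone, DESeq2 1.42.0, limma 3.58.1 with array weights, quantile normalization, an exact rank-sum test and leaving out each liver. Leaving out the 3 livers of lowest array weight, and the principal transcript length, were chosen after the data were seen.

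The 9 members and all gene lists were chosen with earlier results of these data known. The rule for names took the members, of each list up to 4 called genes with the largest change or else 2 uncalled ones with the smallest p, and the 5 genes most like the metallothioneins and Slc39a14. The labels share replicate numbers across groups and do not say whether these pair the livers. Correlations of same-numbered deviations from the group means ran from -0.149 to 0.245, which cannot exclude a pairing by day or cage.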

Additional observations from a re-analysis of the deposited data

Results flagged for a closer look

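Vehicle 7 stood apart from the other 7 vehicle livers for Slc39a5, at a log2 CPM of -4.145, since it had 0 counts of this gene. Its gap to the nearest vehicle liver exceeded Dixon's critical share of the group's range for 8 values. Of 20 groups of 8 livers examined (each of the 9 members and the Mt2 to Mt1 ratio, in both treatments), this was the 1 that did so, and chance gives about 1 in 20.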

How the results depend on the processing

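Mt1 (2.24 to 2.84 on the log2 scale, or 2.54 to 2.99 with each liver left out), Mt2 (3.09 to 3.87, or 3.50 to 4.07) and Slc39a8 kept their direction and their calls in all 11 alternatives, with each liver left out and without the 3 livers of lowest array weight. The log2 difference of the Mt2 to Mt1 ratio was 0.90 to 1.06 with each liver left out (exact permutation p up to 0.000311). Slc30a10 lost its call with total counts (-0.49), the replicate block (-0.53), library size as a covariate (-0.60), the rank-sum test (-0.53) and without the 3 livers of lowest array weight (-0.46), and ran from -0.59 to -0.45 with each liver left out. The members lower then numbered 1 in place of 2 in those 5 settings, and 1 to 2 with each liver left out. The zinc transporters lower also numbered 1 in the first 4 of them and 1 to 2 with each liver left out. The zinc transporters higher numbered 2 with DESeq2, 0 with quantile normalization, 0 without the 3 livers and 0 to 3 with each liver left out. Slc30a1 passed with library size as a covariate (0.41). Slc39a5 reversed to 0.27 with array weights. Cpox, near 0, reversed with Ensembl entries alone (-0.0045), with array weights (-0.13) and without the 3 livers (-0.11), and ran from -0.054 to 0.073 with each liver left out. The cause was not tested. Over all entries, 1102 were called higher and 782 lower; the replicate block gave 628 and 635, leaving out the 3 livers 734 and 584, quantile normalization 790 and 996, and leaving out each liver 709 (without emodin 4) to 1333 and 521 (without emodin 2) to 903. Whether the replicate numbers pair the livers is not stated, and 2 of 8 emodin livers correlated best with their own number. Srxn1 (1.31) and Orm3 (2.73) also lost their calls with the replicate block. Counts near 0 limit Slc39a5, Mt3 and Mt4.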
